A study of Mus musculus with 12 samples.

Results

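Macrophages given Mdivi-1 together with inflammatory stimuli were compared after 96 h and after 24 h, in 5 of the 12 libraries of the study. Mdivi-1 is a small molecule used to inhibit Drp1, the GTPase that divides mitochondria. The cells were RAW264.7, an established mouse macrophage-like line. The 96 h group was 3 libraries of cells kept for 96 h with 10 ng/mL LPS, 10 ng/mL mouse IFN-γ and 50 µM Mdivi-1, all begun at the same time. They were set against 2 libraries (numbers 1 and 2) of cells kept for 24 h with the same LPS, IFN-γ and Mdivi-1. The number 3 library of the 24 h group held almost no messenger RNA and is given apart. Of 49585 genes in the table, 9162 were high enough to be tested. Another 5 libraries (3 at 96 h and 2 at 24 h, with LPS and IFN-γ but without Mdivi-1) entered the fit, to estimate the spread and to set the time difference with Mdivi-1 against that without it. Cells without LPS and IFN-γ were not analysed here, so every value is one of stimulated cells. The labels do not say that libraries of a group came from separate cultures, and a p-value here reflects how far these samples scatter and no more.

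LPS is a lipid of the bacterial outer membrane sensed by Toll-like receptor 4, and IFN-γ is the T cell cytokine that primes macrophages. Together they act on gene expression through NF-kB and interferon regulatory factors, which induce cytokines, chemokines, prostaglandin and nitric oxide synthesis, and antigen presentation. Drp1 is recruited to the outer mitochondrial membrane by adaptor proteins and constricts it, and fission works together with fusion and with the removal of damaged mitochondria.

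The libraries of the 2 times held different kinds of RNA, and this moved with every result. Values are TPM, a length-corrected share of transcripts that the authors deposited. Genes of the mitochondrial genome took 70.0%, 67.1% and 69.8% of the TPM in the Mdivi-1 96 h libraries, against 6.25% and 6.68% in the Mdivi-1 24 h libraries. Satellite-like genes, whose transcripts share sequence with mouse satellite repeats, took 15.4%, 18.7% and 16.01% at 96 h, against 0.00% at 24 h in both libraries. Structured RNA, such as 7SL and small nuclear RNA, took 6.26%, 5.15% and 4.71% at 96 h, against 49.6% and 53.1% at 24 h. All other genes were left with 8.37%, 8.97% and 9.50% at 96 h, against 44.2% and 40.2% at 24 h. In the number 3 library at 24 h the mitochondrial genome took 96.0% and all other genes 0.750%. Olfactory, vomeronasal and trace amine receptor genes, which macrophages are not known to use, had a median of 1.28, 1.38 and 1.87 TPM at 96 h and of 0 in both 24 h libraries. The first 3 kinds of RNA were therefore removed, the median of the receptor genes was subtracted, and what remained was scaled to add up to 1000000. These values are called rescaled TPM here. The subtracted background equalled 24.2, 24.3 and 35.9 rescaled TPM at 96 h and 0 at 24 h, so a gene at 0 after subtraction at 96 h was no higher than that background. Time and the makeup of the libraries cannot be told apart.

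**Figure D1:**
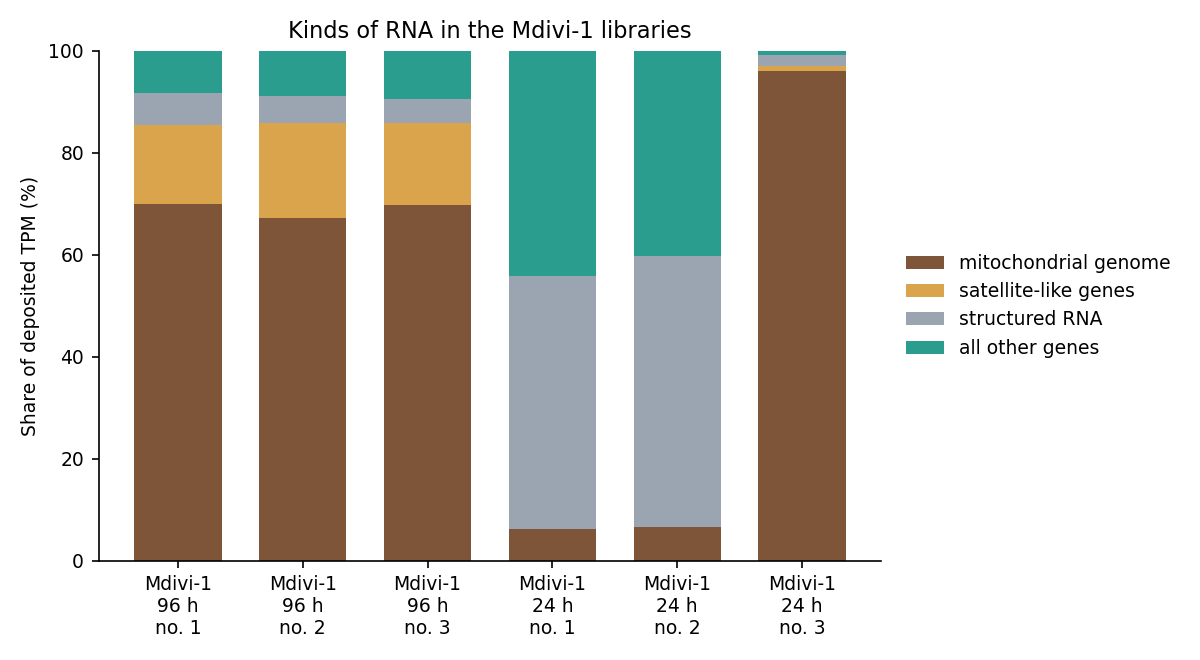
Share of deposited TPM (y axis, percent) taken by 4 kinds of RNA in each Mdivi-1 library (x axis, 1 bar per library). The mitochondrial genome fills 67.1% to 70.0% of the 3 bars at 96 h, 6.25% and 6.68% of 24 h numbers 1 and 2, and 96.0% of 24 h number 3.

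The cells were checked against 23 macrophage genes. Their summed level was 10958.5, 9958 and 9791 rescaled TPM in the Mdivi-1 96 h libraries, against 61542 and 65513 in the Mdivi-1 24 h libraries. The lysozyme Lyz2, the LPS co-receptor Cd14, the scavenger protein Cd68 and the transcription factor Spi1 were present at both times, while 3 of the 23 (Marco, Aif1 and Mertk) were at 0 in all 96 h libraries. Most members went down, as 20 of the 22 tested fell, 1 rose and 1 did not pass the test. The sums include Lyz2, whose level is uncertain as given below. Of the other cell types checked, 16 fibroblast and matrix genes summed to 2.14, 4.11 and 0 at 96 h, against 644 and 536 at 24 h. The 6 sex-linked genes summed to 2.15, 4.01 and 0 at 96 h, against 73.3 and 63.6 at 24 h, all of it from Y-linked genes. T and NK cell genes summed to 47.2, 22.6 and 15.2 at 96 h, against 0.707 and 0.551 at 24 h. Neutrophil, B cell, dendritic cell and osteoclast genes summed to less at 96 h than at 24 h in every library, and epithelial and endothelial genes summed to at most 11.7 in any of the 5 libraries. The sources used here do not say whether cells of 1 stock served both times, and time and such a difference cannot be told apart. The part of other cells in the results was not tested.

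A total of 9162 genes averaged at least 10 rescaled TPM over the 2 groups and were tested with limma on log2(rescaled TPM + 10). Of these, 2682 rose and 2710 fell at 96 h at a Benjamini-Hochberg adjusted p under 0.05, which is 58.9% of the genes tested. The median difference of all genes tested was -0.05 on that log2 scale. A gene at or near 0 in one group reached the level tested through the other group and had to differ, so list counts and medians below describe the genes tested. In all, 29.3% of genes rose and 29.6% fell. Of the 641 tested genes in the lists described below, 640 are protein-coding, and among the 6660 protein-coding genes tested 17.4% rose and 40.2% fell, so list counts are read against those 2 shares. Leaving out 1 of the 24 h libraries left fewer calls, 3156 without number 1 and 3182 without number 2. With all 12 libraries, both number 3 libraries of 24 h included, 67 rose and 2 fell. The split depended on the scaling. Higher genes were 49.7% of the calls in the main scaling. They were 70.4% with no background subtracted, 27.7% with the 90th percentile of the receptor genes subtracted, 37.97% with protein-coding genes alone, 37.2% with the deposited TPM and 9.62% with satellite-like genes kept. The median of all genes moved to 0.63, -1.30, -0.55, -0.88 and -1.75 in these 5 settings, and to 0.25 with TMM scaling. A change smaller than such a shift turns sign with it, and genes named below that did so in a scaling are marked. Of 141 called genes named below, others kept their sign but lost their call, 5 with the deposited TPM and 7 with no background subtracted, and 15 of 139 tested with satellite-like genes kept. With all 12 libraries 112 of 137 did so.

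The difference varied with the kind of gene. Protein-coding genes had a median of -0.77, with 1159 of 6660 higher and 2674 lower. Processed pseudogenes, copies of messenger RNA inserted in the genome, had a median of 2.10, with 876 of 1495 higher and 7 lower. Long intergenic RNAs had a median of 2.05, with 193 of 255 higher. In the rescaled total, processed pseudogenes took 11.4%, 12.4% and 15.004% at 96 h, against 3.45% and 2.05% at 24 h, and 15.7% in the number 3 library. Of the 2682 higher genes, 1346 (50.2%) had a level in the number 3 library at 24 h of at least 50% of their 96 h mean. Split by transcript length into 3 equal parts, protein-coding genes had medians of -0.82 (shortest), -0.90 and -0.65 (longest).

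**Figure D2:**
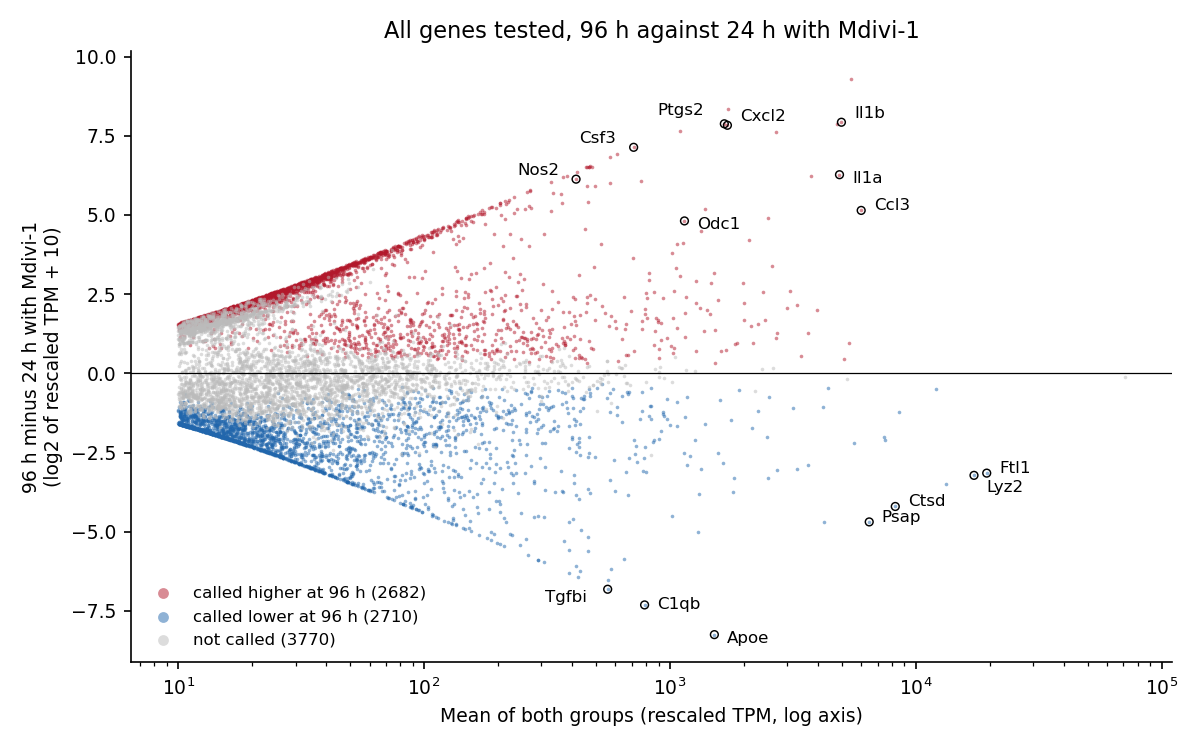
Difference between 96 h and 24 h with Mdivi-1 (y axis, log2 of rescaled TPM + 10) against the mean of both groups (x axis, rescaled TPM, log axis), 1 point per gene tested. Of 9162 genes 2682 were called higher and 2710 lower, and Il1b, Ptgs2 and Cxcl2 at the top and Apoe, C1qb and Tgfbi at the bottom are circled with other named genes.

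Cytokine genes were among those with the largest rises. Of 12 tested cytokine genes (20 listed), 9 rose, 1 fell and 2 did not pass the test, with a median of 3.43 against -0.05 for all genes and -0.77 for protein-coding genes. Il1b (ENSMUSG00000027398), the precursor of interleukin-1β, measured 9953, 10029.9 and 9850.4 in the Mdivi-1 96 h libraries, against 26.9 and 35.3 in the Mdivi-1 24 h libraries (rescaled TPM). The 3 libraries at 96 h were within a narrow range and lay far above both at 24 h. The difference was 7.93 ± 0.13 (log2, SE, n = 3 and 2; limma adjusted p = 1.3e-08), and the ratio of means was 319.7-fold. Its sister cytokine Il1a measured 9818, 9998 and 9229 in the Mdivi-1 96 h libraries, against 109.7 and 121 in the Mdivi-1 24 h libraries (6.27 ± 0.12, limma adjusted p = 1.9e-08). Il1rn, the secreted antagonist of the interleukin-1 receptor, measured 2797, 2768 and 2630.2 in the Mdivi-1 96 h libraries, against 302 and 289.8 in the Mdivi-1 24 h libraries (3.16 ± 0.15, limma adjusted p = 2.3e-06), a call lost with the deposited TPM (0.25, limma adjusted p = 0.18). The 2 agonists thus showed larger ratios of means, 319.7-fold and 83.7-fold, than the antagonist with 9.24-fold.

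Csf3, which encodes the granulocyte growth factor G-CSF, measured 1465, 1496 and 1311 in the Mdivi-1 96 h libraries, against 0 and 0.373 in the Mdivi-1 24 h libraries (7.14 ± 0.13, limma adjusted p = 1.5e-08). It was near 0 at 24 h, so no ratio is given. Il6, a cytokine of the acute phase response, measured 148, 107 and 121 in the Mdivi-1 96 h libraries, against 0.343 and 0.435 in the Mdivi-1 24 h libraries (3.69 ± 0.36, limma adjusted p = 7.9e-05). Il27, a cytokine that acts on T cells, measured 515, 426 and 331 in the Mdivi-1 96 h libraries, against 3.81 and 5.17 in the Mdivi-1 24 h libraries (4.88 ± 0.31). Lif, of the interleukin-6 family, measured 189, 168 and 164 in the Mdivi-1 96 h libraries, against 1.28 and 0.849 in the Mdivi-1 24 h libraries (4.05 ± 0.28). All 4 were separate between the times in every library, as were 82.4% of all genes tested, in either direction.

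Tnf rose less. It measured 306, 246 and 200.3 in the Mdivi-1 96 h libraries, against 90.3 and 108 in the Mdivi-1 24 h libraries, a difference of 1.24 ± 0.21 (limma adjusted p = 0.0015) whose sign turned with the deposited TPM and with satellite-like genes kept. Csf1, the growth factor of macrophages, was the cytokine that fell, with 5.05, 9.69 and 0 at 96 h, against 29.9 and 27.8 at 24 h (-1.43 ± 0.31, limma adjusted p = 0.0055), a call lost with no background subtracted (-0.39, limma adjusted p = 0.18). Il18 and Ebi3, the partner chain of the interleukin-27 protein, did not pass the test at 0.90 and -0.61, and the sign of Il18 turned with the deposited TPM and with satellite-like genes kept, while that of Ebi3 turned with all 12 libraries. Il10, the anti-inflammatory cytokine, was below the level tested, with 0 at 96 h, against 0.636 and 0.806 at 24 h.

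Chemokine genes rose in like number. Of 13 tested chemokine genes (18 listed), 9 rose, 2 fell and 2 did not pass the test, with a median of 3.40. Cxcl2 (ENSMUSG00000058427), which attracts neutrophils, measured 3804, 3388 and 3079 in the Mdivi-1 96 h libraries, against 4.22 and 5.87 in the Mdivi-1 24 h libraries (7.83 ± 0.12, limma adjusted p = 1.3e-08). Ccl3, a chemoattractant of monocytes and other leukocytes, measured 12452, 11693 and 10899 in the Mdivi-1 96 h libraries, against 281 and 365 in the Mdivi-1 24 h libraries and was the most abundant chemokine messenger at 96 h (5.14 ± 0.16, limma adjusted p = 2.2e-07). Its neighbour in the family, Ccl4, measured 4569, 4021 and 3397 in the Mdivi-1 96 h libraries, against 192 and 220.2 in the Mdivi-1 24 h libraries (4.20 ± 0.18). All 3 were higher in each library at 96 h than in either at 24 h. Libraries of the 2 times did not overlap, in either direction, for 82.4% of all genes tested.

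Ccl9 measured 4865, 4922 and 4466 in the Mdivi-1 96 h libraries, against 421 and 460.5 in the Mdivi-1 24 h libraries (3.40 ± 0.12, limma adjusted p = 4.3e-07). Ccl2, which draws monocytes, measured 2323, 2376 and 2111 in the Mdivi-1 96 h libraries, against 254 and 333 in the Mdivi-1 24 h libraries (2.92 ± 0.17, limma adjusted p = 9.5e-06), a call lost with the deposited TPM (0.016, limma adjusted p = 0.94) and with satellite-like genes kept (0.91, limma adjusted p = 0.11). The interferon-inducible T cell attractant Cxcl10 measured 526, 339 and 351 in the Mdivi-1 96 h libraries, against 13.1 and 17.1 in the Mdivi-1 24 h libraries (4.02 ± 0.45, limma adjusted p = 0.00017). Cxcl11, of the same class, measured 149, 98.4 and 89.6 at 96 h, against 0.0732 and 0 at 24 h (3.58 ± 0.39). Ccl5 behaved otherwise. It measured 5385, 5024 and 4452 in the Mdivi-1 96 h libraries, against 5568 and 5567 in the Mdivi-1 24 h libraries, and its difference of -0.17 ± 0.15 did not pass the test (limma adjusted p = 0.32), with a sign that turned under 3 scalings. Ccl6 fell, with 79.0, 132 and 56.1 at 96 h, against 440.7 and 427 at 24 h (-2.24 ± 0.28).

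The number 3 library at 24 h, in which all other genes took 0.750% of the TPM, held 0 rescaled TPM of Il1b, Csf3, Il27, Cxcl2, Ccl2 and Ccl4, 2.65 of Il1a, 86.9 of Ccl3 and 32.5 of Il6. It also held 0 of Ccl5, which was high in both other 24 h libraries. Its zeros were therefore not taken as levels of 24 h cells, and their cause was not tested.

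**Figure D3:**
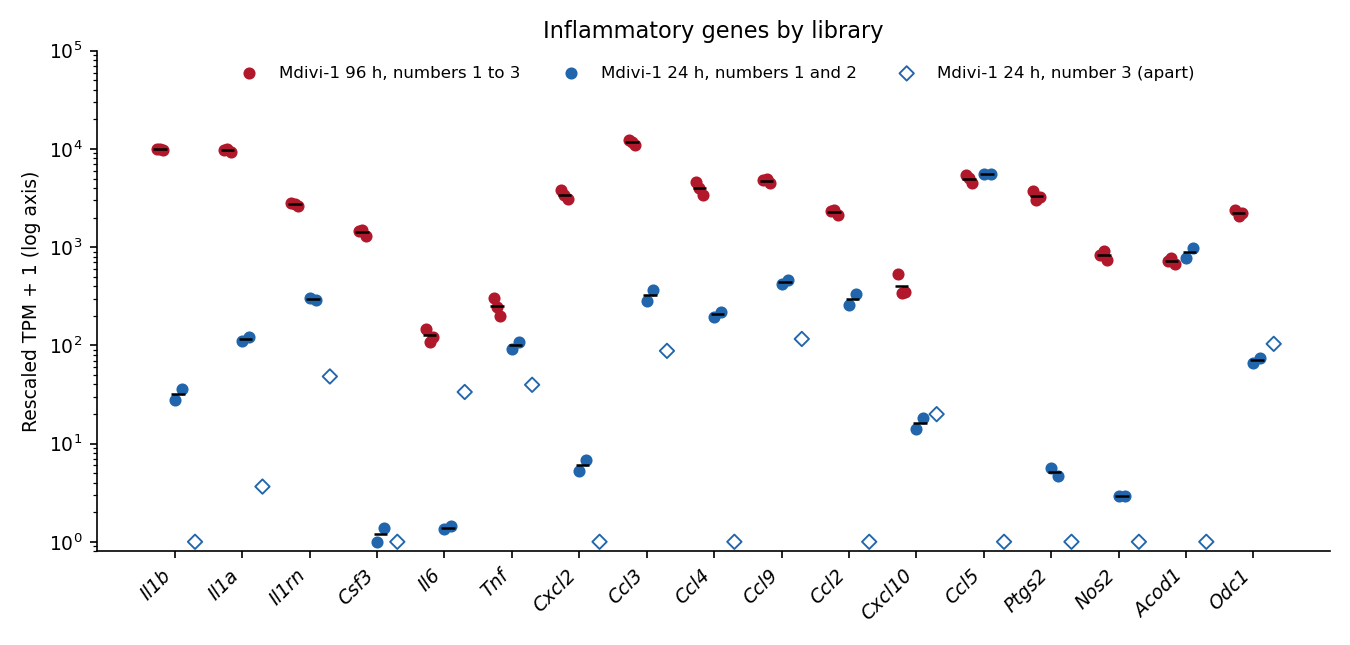
Rescaled TPM + 1 (y axis, log axis) of 17 inflammatory genes (x axis) in each Mdivi-1 library, 96 h left of 24 h, with short lines at group means and the number 3 library at 24 h as open diamonds. Il1b lies between 9850.4 and 10029.9 at 96 h and at 26.9 and 35.3 at 24 h, while Ccl5 and Acod1 lie close together at both times.

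Promoters of genes that rose most were examined for the letters to which NF-kB binds, since LPS acts through it. The kappaB consensus was searched on both strands in the 250 bases before each RefSeq start of GRCm38.p6. It was found in 5 of 12 cytokine and chemokine genes that rose and had a sequence (Cxcl2, Cxcl10, Ccl9, Cxcl3 and Il6), out of 18 that rose. Cxcl3 was no longer called without any 1 of 4 libraries (limma adjusted p of 0.056 to 0.10). The consensus was found in 4.46% of 27025 genes in all. Cytokine and chemokine genes that did not rise were not counted as a set, so a link between a match and the rise was not tested. Cxcl2 and Cxcl10 are shown because 1 held the largest rise among genes with a match and the other holds 2 separate matches. Capitals mark the matches, which in Cxcl2 are a pair shifted by a single base, beginning 97 and 96 bases before the start. In Cxcl10 they begin 159 and 103 bases before it. The Cxcl2 stretch is chr5:90903649-90903898 on the plus strand, and that of Cxcl10 is chr5:92348890-92349139 on the minus strand.
Cxcl2: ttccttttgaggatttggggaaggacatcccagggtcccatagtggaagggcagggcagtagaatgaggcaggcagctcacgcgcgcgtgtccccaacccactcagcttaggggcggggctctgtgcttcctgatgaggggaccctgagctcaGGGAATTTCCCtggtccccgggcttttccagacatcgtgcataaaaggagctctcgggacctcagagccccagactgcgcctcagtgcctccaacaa
Cxcl10: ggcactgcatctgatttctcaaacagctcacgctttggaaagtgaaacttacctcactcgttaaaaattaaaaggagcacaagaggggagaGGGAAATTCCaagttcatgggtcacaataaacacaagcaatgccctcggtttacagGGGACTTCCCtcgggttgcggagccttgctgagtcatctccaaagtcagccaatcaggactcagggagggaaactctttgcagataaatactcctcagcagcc
The stretch before Il1b, the gene of largest rise, held no match. A match is a run of letters and no measured binding.

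Among genes that serve the synthesis of inflammatory mediators and polyamines, Ptgs2, Nos2 and Odc1 rose and Hpgds, Tbxas1 and Alox5ap fell. Of 8 tested genes of prostaglandin and leukotriene synthesis (14 listed), 3 rose, 5 fell and 0 did not pass the test, with a median of -1.83. Ptgs2 (ENSMUSG00000032487), the inducible cyclooxygenase, measured 3695, 3043 and 3244 in the Mdivi-1 96 h libraries, against 4.61 and 3.69 in the Mdivi-1 24 h libraries. Every library at 96 h was far above those at 24 h (7.88 ± 0.13, limma adjusted p = 1.3e-08). Pla2g4a, the cytosolic phospholipase that frees arachidonic acid, measured 80.5, 72.2 and 89.3 at 96 h, against 18.1 and 18.5 at 24 h (1.67 ± 0.24), a sign that turned with the deposited TPM. Downstream enzymes fell. Hpgds, the prostaglandin D synthase of blood cells, measured 0 in all 3 Mdivi-1 96 h libraries, against 80.1 and 73.4 in the Mdivi-1 24 h libraries (-3.12 ± 0.30, limma adjusted p = 7.1e-05). Tbxas1, thromboxane synthase, measured 0.712, 0 and 3.92 at 96 h, against 39.5 and 38.1 at 24 h (-2.09 ± 0.21). Alox5ap, which serves leukotriene synthesis, measured 37.4, 54.7 and 31.2 at 96 h, against 411 and 457 at 24 h (-3.14 ± 0.52).

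Of 14 tested genes of nitric oxide, arginine and polyamine metabolism (17 listed), 4 rose, 3 fell and 7 did not pass the test, with a median of -0.10. Nos2 (ENSMUSG00000020826), the inducible nitric oxide synthase, measured 834, 915 and 737 in the Mdivi-1 96 h libraries, against 1.95 and 1.91 in the Mdivi-1 24 h libraries (6.13 ± 0.17, limma adjusted p = 1.4e-07). Odc1, which makes the polyamine precursor putrescine, measured 2388, 2068 and 2214 in the Mdivi-1 96 h libraries, against 65.1 and 74.0 in the Mdivi-1 24 h libraries (4.81 ± 0.12, limma adjusted p = 5.8e-08). Both were far above their 24 h levels in each library. Asl, which returns citrulline to arginine, measured 0, 1.24 and 0 at 96 h, against 26.3 and 24.8 at 24 h (-1.77 ± 0.29, limma adjusted p = 0.0014). Ass1, which precedes it, measured 97.3, 77.9 and 71.9 at 96 h, against 171 and 174 at 24 h and did not pass the test (-0.99 ± 0.70). Arg1, the arginase that competes for arginine, was below the level tested, with 0 at 96 h, against 15.2 and 9.29 at 24 h.

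Among lists of energy metabolism, that of the TCA cycle held no gene that rose, while glycolysis and the respiratory chain had shares near those of protein-coding genes. Of 22 tested genes of itaconate synthesis and the TCA cycle (24 listed), 0 rose, 11 fell and 11 did not pass the test, with a median of -1.20. The itaconate synthase Acod1, an LPS-induced enzyme that draws on the TCA cycle, measured 729, 776 and 668 in the Mdivi-1 96 h libraries, against 781 and 983 in the Mdivi-1 24 h libraries. Its difference of -0.27 ± 0.19 did not pass the test (limma adjusted p = 0.23) and turned sign under 3 scalings. Sdhd, a membrane subunit of succinate dehydrogenase, measured 17.6, 21.3 and 15.7 at 96 h, against 239 and 272 at 24 h (-3.24 ± 0.72). Idh3g, a subunit of mitochondrial isocitrate dehydrogenase, measured 8.20, 0 and 0 at 96 h, against 50.7 and 50.9 at 24 h (-2.32 ± 0.49).

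Of 17 tested genes of glycolysis and glucose uptake (19 listed), 3 rose, 8 fell and 6 did not pass the test, with a median of -0.51. The glucose transporter Slc2a1 measured 981, 902 and 822 in the Mdivi-1 96 h libraries, against 76.6 and 79.0 in the Mdivi-1 24 h libraries (3.37 ± 0.12, limma adjusted p = 5.1e-07). The hexokinase Hk3 measured 123, 108 and 76.2 at 96 h, against 514 and 489 at 24 h (-2.21 ± 0.23). Gapdh measured 156, 181 and 120.0 at 96 h, against 403 and 451 at 24 h (-1.44 ± 0.17), and Aldoa measured 682, 775 and 671 at 96 h, against 1213 and 1257 at 24 h (-0.79 ± 0.13). Of 40 tested nuclear genes of the respiratory chain (40 listed), 8 rose, 18 fell and 14 did not pass the test, with a median of -0.82. Uqcrb of complex III measured 810.0, 719 and 1072 at 96 h, against 202 and 239 at 24 h (1.91 ± 0.17), and cytochrome c, Cycs, measured 156, 104 and 141 at 96 h, against 27.6 and 26.1 at 24 h (1.95 ± 0.20). Both signs turned with the deposited TPM, and that of Uqcrb also with satellite-like genes kept.

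Mitochondrial fission is the process on which Mdivi-1 is used to act. Of 12 tested genes of fission and fusion (18 listed), 0 rose, 5 fell and 7 did not pass the test, with a median of -1.20, a share of falls near the 40.2% of protein-coding genes. Dnm1l, which encodes Drp1, measured 33.5, 20.8 and 15.1 in the Mdivi-1 96 h libraries, against 55.8 and 57.3 in the Mdivi-1 24 h libraries (-1.04 ± 0.60, limma adjusted p = 0.16), and did not pass the test although the libraries of the 2 times did not overlap, as was so for 82.4% of all genes tested. Opa1, the fusion GTPase of the inner membrane, measured 0, 1.34 and 0 at 96 h, against 30.8 and 29.7 at 24 h (-1.95 ± 0.31, limma adjusted p = 0.0012). Oma1, the protease that cuts Opa1, measured 4.62, 0 and 0 at 96 h, against 29.3 and 32.7 at 24 h (-1.85 ± 0.29). The Drp1 adaptor Fis1 measured 47.9, 11.7 and 45.6 at 96 h, against 125 and 141 at 24 h (-1.79 ± 0.53), a call lost without either 24 h library (limma adjusted p = 0.086 without number 1 and 0.11 without number 2), while another adaptor, Mff, measured 20.5, 24.4 and 33.3 at 96 h, against 33.9 and 34.2 at 24 h (-0.30, not called). Levels of about 30 rescaled TPM at 24 h are close to the background subtracted at 96 h, which limits these values.

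Of 17 tested genes of autophagy and mitophagy (22 listed), 2 rose, 12 fell and 3 did not pass the test. Their median was -1.67, or -1.46 without the 4 members with a group at 0. Bnip3, a mitophagy receptor induced by low oxygen, measured 233, 265.5 and 278 in the Mdivi-1 96 h libraries, against 34.5 and 36.0 in the Mdivi-1 24 h libraries (2.57 ± 0.19, limma adjusted p = 2.3e-05), a call lost with the deposited TPM (0.052, limma adjusted p = 0.76) and with satellite-like genes kept (0.69, limma adjusted p = 0.10). Pink1, the kinase that marks damaged mitochondria, measured 0 at 96 h, against 33.7 and 31.0 at 24 h (-2.08 ± 0.15), and the receptor Optn measured 0 at 96 h, against 25.1 and 22.7 at 24 h (-1.76 ± 0.14). The receptor Sqstm1 measured 878, 786 and 760.2 at 96 h, against 537 and 546 at 24 h (0.57 ± 0.11), a sign that turned under 3 scalings. Of 24 tested genes of the mitochondrial ribosome and of protein import (31 listed), 0 rose, 9 fell and 15 did not pass the test, with a median of -1.20. Timm50, of the inner membrane import pore, measured 0 at 96 h, against 33.1 and 38.1 at 24 h (-2.19 ± 0.19).

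Most tested receptors and adaptors of the stimuli fell, and Cd14 rose. Of 19 tested genes of receptors and adaptors (22 listed), 1 rose, 12 fell and 6 did not pass the test. Their median was -1.55, or -1.19 without the 3 members with a group at 0. Cd14, which hands LPS to its receptor, measured 1292, 1292 and 1179 in the Mdivi-1 96 h libraries, against 475 and 511 in the Mdivi-1 24 h libraries (1.33 ± 0.21, limma adjusted p = 0.0011), with a sign that turned with the deposited TPM and with satellite-like genes kept. Tlr4, the LPS receptor itself, measured 10.1, 21.1 and 5.27 in the Mdivi-1 96 h libraries, against 54.3 and 55.1 in the Mdivi-1 24 h libraries (-1.61 ± 0.43, limma adjusted p = 0.013). That call was lost without either 24 h library (limma adjusted p = 0.082 without number 1 and 0.084 without number 2). Its partner MD-2, encoded by Ly96, measured 0 at 96 h, against 34.8 and 32.0 at 24 h (-2.12 ± 0.35). Ifngr1, the ligand-binding chain of the IFN-γ receptor, measured 6.54, 0 and 0 in the Mdivi-1 96 h libraries, against 121 and 125 in the Mdivi-1 24 h libraries (-3.49 ± 0.36, limma adjusted p = 0.0001). Irak4, a kinase below Toll-like receptors, measured 0 at 96 h, against 27.6 and 28.7 at 24 h (-1.93 ± 0.15).

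Of 18 tested genes of NF-kB subunits and feedback inhibitors (18 listed), 8 rose, 2 fell and 8 did not pass the test, with a median of 0.50. Nfkbia, the inhibitor that NF-kB induces, measured 1363, 1448 and 1280.0 in the Mdivi-1 96 h libraries, against 219 and 293 in the Mdivi-1 24 h libraries (2.38 ± 0.15, limma adjusted p = 1.2e-05). Nfkb2 measured 472, 423 and 340.4 at 96 h, against 62.1 and 71.8 at 24 h (2.44 ± 0.21), and Socs3, an inhibitor of cytokine receptors, measured 460.0, 422 and 335 at 96 h, against 59.7 and 71.8 at 24 h (2.45 ± 0.21). The sign of these 3 turned with the deposited TPM, as did that of every member that rose, 8 of 8. Rela, the main activating subunit, measured 0.445, 0 and 0 in the Mdivi-1 96 h libraries, against 71.2 and 64.7 in the Mdivi-1 24 h libraries (-2.94 ± 0.30, limma adjusted p = 0.0001) and fell in all scalings.

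Of 25 tested interferon-induced genes (28 listed), 6 rose, 13 fell and 6 did not pass the test, with a median of -0.66. Irf1, a factor induced by IFN-γ, measured 0 in all 3 Mdivi-1 96 h libraries, against 59.8 and 66.5 in the Mdivi-1 24 h libraries (-2.87 ± 0.22, limma adjusted p = 2.5e-05). Ifit3 measured 297, 210.4 and 215 at 96 h, against 1145 and 1274 at 24 h (-2.30 ± 0.20), and Irgm2, a GTPase of host defence, measured 0.916, 0 and 0 at 96 h, against 77.8 and 89.9 at 24 h (-3.19 ± 0.31). Ifi44 went the other way with 148, 115 and 120.5 at 96 h, against 29.3 and 27.7 at 24 h (1.83 ± 0.17), a sign that turned with the deposited TPM. Of 19 tested genes of MHC molecules and antigen processing (20 listed), 1 rose, 14 fell and 4 did not pass the test, with a median of -2.06, or -1.47 without the 6 members with a group at 0. B2m, the common light chain of MHC class I, measured 2944, 2754 and 2790.2 in the Mdivi-1 96 h libraries, against 11831 and 12582 in the Mdivi-1 24 h libraries (-2.10 ± 0.11, limma adjusted p = 4.9e-06). The class I heavy chain H2-D1 measured 1059, 978 and 919 at 96 h, against 3994 and 4004 at 24 h (-2.01 ± 0.12). H2-DMa and H2-DMb1, which load peptides on class II, measured 0 at 96 h, against 32.0 and 31.2 at 24 h for H2-DMa and 0 at 96 h, against 74.6 and 83.5 at 24 h for H2-DMb1.

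Of 11 tested costimulation and checkpoint genes (14 listed), 2 rose, 7 fell and 2 did not pass the test, with a median of -1.10. Cd40, a costimulatory receptor, measured 142, 131 and 149 in the Mdivi-1 96 h libraries, against 15.3 and 17.7 in the Mdivi-1 24 h libraries (2.50 ± 0.26, limma adjusted p = 0.00012), a call lost with the deposited TPM (0.34, limma adjusted p = 0.067) and with satellite-like genes kept (0.74, limma adjusted p = 0.14). Sirpa, the receptor of the CD47 signal, measured 132, 140.2 and 93.4 at 96 h, against 864 and 758 at 24 h (-2.66 ± 0.22), and Slamf7 measured 17.4, 14.9 and 8.51 at 96 h, against 310.4 and 321 at 24 h (-3.80 ± 0.38). Cd86 was below the level tested, with 0, 3.28 and 0 at 96 h, against 14.9 and 19.7 at 24 h.

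Lysosomal genes fell without exception among those tested. Of 28 tested genes of lysosomal enzymes and membrane proteins (28 listed), 0 rose, 28 fell and 0 did not pass the test, with a median of -2.95, and none of the 28 turned sign under any of the 7 scalings. Ctsd (ENSMUSG00000007891), an aspartic protease, measured 946, 806 and 782 in the Mdivi-1 96 h libraries, against 15859 and 15491 in the Mdivi-1 24 h libraries (-4.20 ± 0.13, limma adjusted p = 3.1e-07), 18.6-fold lower by the means. Psap, the precursor of the saposins that help to degrade sphingolipids, measured 518, 522 and 392 in the Mdivi-1 96 h libraries, against 12585 and 12345 in the Mdivi-1 24 h libraries (-4.69 ± 0.15, limma adjusted p = 2.6e-07). The cysteine protease Ctsb measured 925, 879 and 797 in the Mdivi-1 96 h libraries, against 6308 and 6558 in the Mdivi-1 24 h libraries (-2.88 ± 0.12). Ctsh, of the same class, was 0 in all 3 libraries at 96 h. Its deposited values were 0.503, 0.251 and 0.699 TPM at 96 h, against 169.9 and 172 TPM at 24 h. The 96 h values of Ctsh are equal only because levels under the background were set to 0. In the deposited TPM, too, no library of 96 h came near those of 24 h.

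Of 12 tested complement and acute phase genes (20 listed), 1 rose, 10 fell and 1 did not pass the test, with a median of -2.59 or -1.65 without the 6 members at 0 throughout the 96 h group. The 3 chains of C1q, which starts the classical complement pathway, were low together at 96 h. C1qa, C1qb and C1qc were each 0 in all 3 Mdivi-1 96 h libraries. C1qb (ENSMUSG00000036905) measured 0 at 96 h, against 1544 and 1613 at 24 h, and its deposited values were 0.251, 1.17 and 0.305 TPM at 96 h, against 682 and 648 TPM at 24 h. C1qa had deposited values of 1.049, 0.611 and 0.319 TPM at 96 h, against 251 and 241 TPM at 24 h. Lyz1, the lysozyme of intestinal Paneth cells, went the other way with 2846, 2656 and 2625 in the Mdivi-1 96 h libraries, against 64.4 and 65.7 in the Mdivi-1 24 h libraries (5.18 ± 0.12, limma adjusted p = 5.8e-08). The number 3 library held 2680.0 of it. Lyz1 and Lyz2 are near-identical copies whose reads the counting could split, so both are uncertain. Saa3, an acute phase protein of macrophages, measured 1907, 1988 and 1764 in the Mdivi-1 96 h libraries, against 2847 and 3499 in the Mdivi-1 24 h libraries (-0.74 ± 0.14, limma adjusted p = 0.0026).

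Of 8 tested genes of the phagocyte oxidase (8 listed), 1 rose, 4 fell and 3 did not pass the test, with a median of -0.90. Cyba and Cybb, the membrane chains of the enzyme that makes superoxide, measured 342, 267 and 263 at 96 h, against 2289 and 2499 at 24 h for Cyba and 539, 528 and 567 at 96 h, against 1333 and 1324 at 24 h for Cybb. Both fell, by 3.01 and 1.27 on the log2 scale. Of 18 tested genes of fatty acid and sterol synthesis and efflux (24 listed), 2 rose, 9 fell and 7 did not pass the test. Their median was -1.07, or -0.66 without the 3 members with a group at 0, against -0.77 for protein-coding genes. Abca1, the cholesterol exporter, and Nr1h3, the LXRα receptor that induces it, were 0 in all 3 libraries at 96 h. At 24 h Abca1 measured 191.7 and 179.4, and Nr1h3 measured 159.2 and 196.2.

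Macrophage identity genes fell with them. Of 22 tested macrophage identity genes (24 listed), 1 rose, 20 fell and 1 did not pass the test. Their median was -3.34, or -3.05 without the 3 members with a group at 0. Csf1r, the receptor of the macrophage growth factor, measured 12.7, 19.3 and 0 in the Mdivi-1 96 h libraries, against 719 and 743 in the Mdivi-1 24 h libraries (-5.30 ± 0.65, limma adjusted p = 0.00028). Adgre1, which encodes F4/80, measured 72.6, 84.6 and 54.1 in the Mdivi-1 96 h libraries, against 2484 and 2590.2 in the Mdivi-1 24 h libraries (-5.00 ± 0.60). The transcription factor Cebpa measured 1.19, 1.23 and 0 at 96 h, against 179 and 155 at 24 h. Spi1, which encodes PU.1, measured 365, 325 and 270.2 in the Mdivi-1 96 h libraries, against 291 and 283 in the Mdivi-1 24 h libraries and did not pass the test (0.14 ± 0.22), with a sign that turned under 3 scalings. The signalling adaptors Tyrobp and Fcer1g measured 277, 270.0 and 192 at 96 h, against 3233 and 3523 at 24 h for Tyrobp and 971, 951 and 1046 at 96 h, against 3018 and 3598 at 24 h for Fcer1g. The mannose receptor Mrc1 measured 3.28, 10.0 and 1.002 at 96 h, against 65.8 and 56.8 at 24 h (-2.31 ± 0.38). Lyz2 measured 3719.8, 3334 and 2992 in the Mdivi-1 96 h libraries, against 30304 and 32068 in the Mdivi-1 24 h libraries (-3.22 ± 0.15). Its levels at 96 h were among the highest of the list although they fell 9.31-fold.

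**Figure D4:**
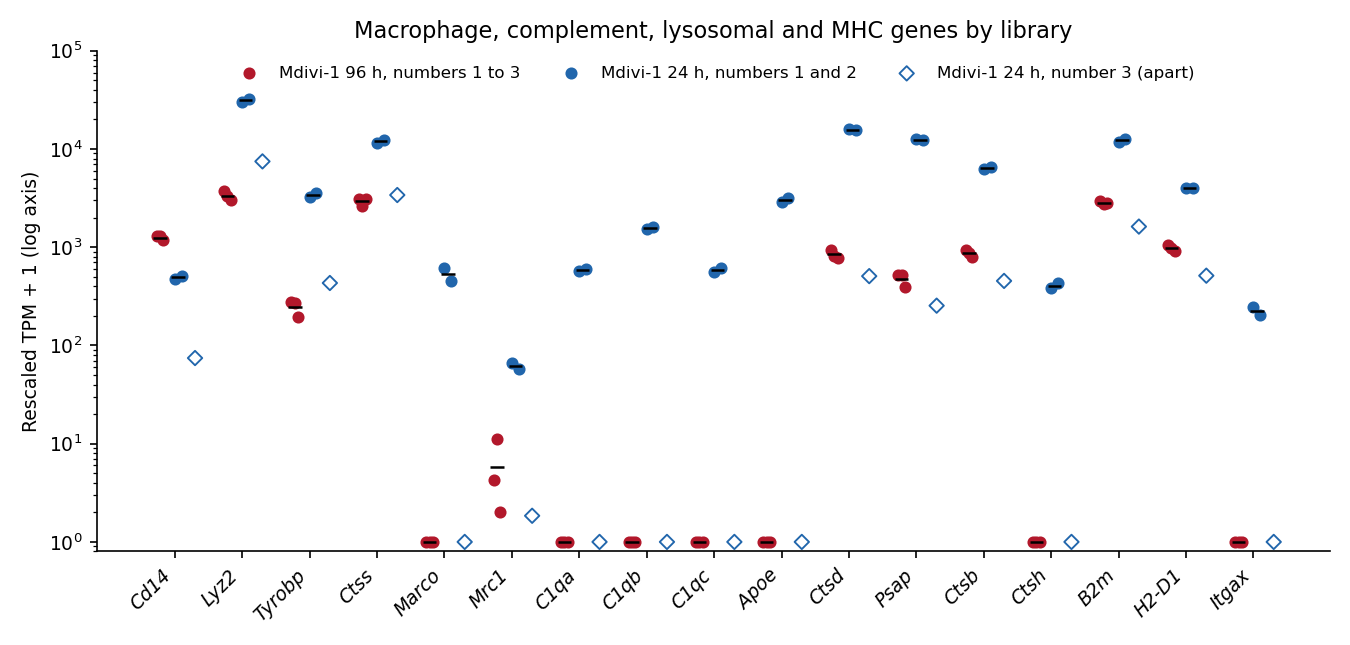
Rescaled TPM + 1 (y axis, log axis) of 17 macrophage, complement, lysosomal and MHC genes (x axis) in each Mdivi-1 library, 96 h left of 24 h, with short lines at group means and the number 3 library at 24 h as open diamonds. Cd14 alone among them is higher at 96 h, and Marco, C1qa, C1qb, C1qc, Apoe, Ctsh and Itgax are 0 in all 3 libraries at 96 h.

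The largest falls named by the rule were 15 genes, of which 10 were 0 in all 3 Mdivi-1 96 h libraries. Apoe (ENSMUSG00000002985), the lipid carrier that macrophages secrete, measured 0 in all 3 Mdivi-1 96 h libraries, against 2895 and 3174 in the Mdivi-1 24 h libraries (-8.25 ± 0.13, limma adjusted p = 1.3e-08). Its deposited values were 0.272, 0.635 and 0.662 TPM at 96 h, against 1279 and 1276 TPM at 24 h. Tgfbi, a matrix protein, had deposited values of 0.204, 0.237 and 0.743 TPM at 96 h, against 508 and 436 TPM at 24 h. Npy, a neuropeptide, was listed at 0 TPM by the authors at 96 h in all 3 libraries, against 272.3 and 248 TPM at 24 h. The inhibitory receptor Pirb measured 0 at 96 h, against 759.7 and 795 at 24 h, the lipoprotein phospholipase Pla2g7 0 at 96 h, against 846 and 852 at 24 h, and the coagulation factor F7 0 at 96 h, against 424 and 422 at 24 h. The scavenger receptor Marco measured 0 at 96 h, against 610.0 and 448 at 24 h. Mfge8, a bridge to dying cells, measured 7.61, 0 and 0 at 96 h, against 1318 and 917 at 24 h. Msrb1, Acp5, Lst1 and Smpdl3a made up the rest, with differences of -6.25, -5.61, -5.58 and -5.43. Of 7 tested fibroblast and matrix genes (16 listed), 7 fell, and all 7 were 0 in the 96 h libraries. They reached the level tested through the 24 h group alone and had to fall, so this count is no finding about the list. Fn1, which encodes fibronectin, measured 0 at 96 h, against 198 and 158 at 24 h (-4.23 ± 0.22), and Sparc measured 0 at 96 h, against 101 and 95.7 at 24 h (-3.44 ± 0.22).

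Antioxidant and iron genes mostly fell. Of 24 tested Nrf2 target and antioxidant genes (29 listed), 1 rose, 18 fell and 5 did not pass the test, with a median of -1.73. Gpx1, a glutathione peroxidase, measured 76.6, 75.1 and 88.5 in the Mdivi-1 96 h libraries, against 1264 and 1269 in the Mdivi-1 24 h libraries (-3.83 ± 0.12, limma adjusted p = 3.4e-07). The glutathione transferases Gstm1 and Gstp1 measured 7.26, 6.16 and 0 at 96 h, against 513 and 517 at 24 h for Gstm1 and 3.01, 0 and 0 at 96 h, against 153 and 154 at 24 h for Gstp1. Of 16 tested genes of heme and iron handling (20 listed), 1 rose, 10 fell and 5 did not pass the test. Their median was -1.74, or -1.22 without the 4 members with a group at 0. Ftl1, the ferritin light chain, measured 4081, 4472 and 3322 in the Mdivi-1 96 h libraries, against 34574 and 35323 in the Mdivi-1 24 h libraries (-3.15 ± 0.14, limma adjusted p = 1.7e-06). Hmox1 (ENSMUSG00000005413), which degrades heme, was the member of the iron list that rose, with 3626, 3878 and 3592 in the Mdivi-1 96 h libraries, against 1761 and 1625 in the Mdivi-1 24 h libraries (1.12 ± 0.09, limma adjusted p = 2.5e-05). Its sign turned with the deposited TPM and with satellite-like genes kept.

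Most heat shock genes tested rose, with signs that depended on the scaling. Of 14 tested heat shock chaperone genes (16 listed), 11 rose, 1 fell and 2 did not pass the test, with a median of 1.57. The list's median was -1.23 with the deposited TPM and -0.35 with satellite-like genes kept. Hsp90aa1 measured 1717, 1607 and 2072 in the Mdivi-1 96 h libraries, against 288 and 290.2 in the Mdivi-1 24 h libraries (2.59 ± 0.15, limma adjusted p = 9.0e-06), with a sign that turned with the deposited TPM. Hspa8 measured 3019, 2987 and 3154 at 96 h, against 923 and 983 at 24 h (1.67 ± 0.11) and Hsp90ab1 3073, 3045 and 3381 at 96 h, against 1115 and 1122 at 24 h (1.49 ± 0.12), and both turned in both of these settings. Hspa1b, an inducible Hsp70, measured 727, 586 and 695 in the Mdivi-1 96 h libraries, against 3.47 and 2.54 in the Mdivi-1 24 h libraries (5.70 ± 0.50) and turned in neither, but the number 3 library at 24 h held 938. Hspa1a and Hspa1b are near-identical copies, so their split is uncertain.

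Of 23 tested genes of the integrated stress response and serine synthesis (30 listed), 11 rose, 2 fell and 10 did not pass the test, with a median of 1.11. With the deposited TPM the list's median was -1.18, and with satellite-like genes kept -0.47. Nupr1 (ENSMUSG00000030717), a stress-induced chromatin protein, measured 893, 833 and 906 in the Mdivi-1 96 h libraries, against 27.0 and 27.6 in the Mdivi-1 24 h libraries (4.57 ± 0.14, limma adjusted p = 2.2e-07). Phgdh, the first enzyme of serine synthesis, measured 253, 280.3 and 258 in the Mdivi-1 96 h libraries, against 7.49 and 4.99 in the Mdivi-1 24 h libraries (4.08 ± 0.19, limma adjusted p = 2.7e-06). Neither turned sign. Ddit3, which encodes CHOP, measured 213, 247 and 264 at 96 h, against 86.4 and 84.5 at 24 h (1.39 ± 0.13), and Atf3 measured 537, 484 and 527 at 96 h, against 354 and 325 at 24 h (0.59 ± 0.12). Both turned with the deposited TPM and with satellite-like genes kept. Gdf15 fell, with 0 at 96 h, against 23.1 and 23.8 at 24 h (-1.74 ± 0.14). The run TTGCATCA, the core bound by ATF4 with its partners, was searched on both strands in the same 250 bases. It was found in 2 of the 10 genes that rose and had a sequence (Nupr1 and Atf3), out of 11 that rose, and in 0.918% of all 27025 genes. Members of the list that did not rise were not counted as a set. The stretch of Nupr1, the largest rise of the list, is chr7:126625471-126625720 on the minus strand, with the match in capitals from 110 bases before the start.
Nupr1: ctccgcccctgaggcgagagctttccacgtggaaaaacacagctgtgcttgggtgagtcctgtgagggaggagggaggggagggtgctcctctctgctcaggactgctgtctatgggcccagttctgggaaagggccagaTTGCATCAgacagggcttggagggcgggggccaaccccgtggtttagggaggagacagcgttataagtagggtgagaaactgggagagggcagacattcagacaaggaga

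Of 21 tested genes of protein folding in the endoplasmic reticulum (22 listed), 4 rose, 8 fell and 9 did not pass the test, with a median of -0.38. The oxidase Ero1l measured 491, 421 and 434 in the Mdivi-1 96 h libraries, against 42.0 and 43.0 in the Mdivi-1 24 h libraries (3.12 ± 0.12, limma adjusted p = 9.4e-07), and the number 3 library held 381. The chaperone Calr measured 446, 499.6 and 499.6 at 96 h, against 1413 and 1637 at 24 h (-1.64 ± 0.15). Of 6 tested genes of metallothioneins and zinc control (9 listed), 3 rose, 0 fell and 3 did not pass the test, with a median of 0.83. Mt2, a zinc-binding metallothionein, measured 2225, 2189 and 2025 in the Mdivi-1 96 h libraries, against 118 and 113 in the Mdivi-1 24 h libraries (4.10 ± 0.17, limma adjusted p = 1.4e-06). Mt1 measured 996, 777 and 845 at 96 h, against 196 and 183 at 24 h (2.14 ± 0.24), with a sign that turned with the deposited TPM.

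Few cell cycle genes were high enough to test. Of 38 G2 and mitosis genes in the table, 3 were tested, and all 3 rose. Cks2 and Mki67 reached the level tested through the 96 h group alone, which fixed their direction, so this count is no finding about the list. Of the 3, 2 had a level in the number 3 library at 24 h of at least 50% of their 96 h mean. Hmgb2, a chromatin protein, measured 247, 247 and 266 at 96 h, against 17.0 and 19.7 at 24 h (3.22 ± 0.14), and Cks2, a partner of the cyclin-dependent kinases, measured 72.5, 105 and 138 at 96 h, against 11.2 and 8.01 at 24 h (2.52 ± 0.27). Mki67, the proliferation antigen, measured 20.8, 24.2 and 17.1 at 96 h, against 8.56 and 6.50 at 24 h (0.81 ± 0.28), with a sign that turned with the deposited TPM and a call that was lost without any 1 of 4 libraries (limma adjusted p of 0.062 to 0.20). Of 9 tested genes of DNA replication and S phase (41 listed), 0 rose, 7 fell and 2 did not pass the test, with a median of -2.02, or -0.23 without the 6 members at 0 throughout the 96 h group. Pcna, the sliding clamp of DNA polymerase, measured 46.6, 24.8 and 30.2 in the Mdivi-1 96 h libraries, against 243 and 229 in the Mdivi-1 24 h libraries (-2.52 ± 0.37, limma adjusted p = 0.0008). Of 23 tested replication histone genes (26 listed), 7 rose, 7 fell and 9 did not pass the test, with a median of -0.88, or 0.16 without the 4 members with a group at 0. Hist1h1e measured 2508, 2915 and 2289 at 96 h, against 101 and 104 at 24 h and Hist1h4c 0 at 96 h, against 136 and 146 at 24 h, so members of this multigene family went both ways. Among the 7 that rose, 6 had a level in the number 3 library at 24 h of at least 50% of their 96 h mean, against 50.2% of all genes that rose. That library held 1529.6 of Hist1h1e.

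Of 19 tested genes of cell cycle brakes and p53 targets (23 listed), 5 rose, 5 fell and 9 did not pass the test, with a median of 0.18. Cdkn1a, which encodes p21, measured 420.3, 496 and 432 in the Mdivi-1 96 h libraries, against 182 and 210.4 in the Mdivi-1 24 h libraries (1.16 ± 0.13, limma adjusted p = 0.0002), with a sign that turned with the deposited TPM and with satellite-like genes kept. Of 12 tested genes of the BCL2 family (18 listed), 3 rose, 3 fell and 6 did not pass the test, with a median of -0.28. The survival gene Bcl2l1 measured 167, 182 and 145 at 96 h, against 74.7 and 75.4 at 24 h (1.03 ± 0.17), with a sign that turned in the same 2 settings, and Bid, which links death receptors to mitochondria, measured 0 at 96 h, against 28.3 and 32.1 at 24 h (-2.01 ± 0.26). Of 12 tested immediate early factor genes (21 listed), 4 rose, 1 fell and 7 did not pass the test, with a median of 0.40. Jund measured 692, 635 and 561 at 96 h, against 202 and 186 at 24 h (1.64 ± 0.14), and Zfp36, which encodes an mRNA decay factor for cytokines, measured 252, 219.8 and 158 at 96 h, against 51.3 and 49.1 at 24 h (1.84 ± 0.25). Both turned with the deposited TPM, and Jund also with satellite-like genes kept.

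Of 60 tested genes of cytosolic ribosomal proteins (60 listed), 38 rose, 6 fell and 16 did not pass the test, with a median of 0.91. That median was -2.01 with the deposited TPM and -1.09 with satellite-like genes kept. In all, 52 of the 60 turned sign under at least 1 of the 7 scalings. All 38 that rose had a level in the number 3 library at 24 h of at least 50% of their 96 h mean, against 50.2% of all genes that rose. Rpsa measured 3481, 3610.4 and 3407 at 96 h, against 475 and 478 at 24 h (2.85 ± 0.11), with 2435 in the number 3 library, and Rps6 measured 3367, 3138 and 3397 at 96 h, against 679 and 729 at 24 h (2.21 ± 0.11), with 3415. Both turned sign with the deposited TPM. Ribosomal protein genes have many processed copies, among which the counting could split reads. Of 20 tested translation factor genes (20 listed), 8 rose, 3 fell and 9 did not pass the test, with a median of 0.30. It was -2.28 with the deposited TPM and -1.46 with satellite-like genes kept. Eif2s2 measured 442, 381 and 478 at 96 h, against 52.1 and 48.9 at 24 h (2.87 ± 0.12), a call lost with the deposited TPM (0.21, limma adjusted p = 0.091). Of 29 tested genes of the actin and tubulin cytoskeleton (29 listed), 4 rose, 18 fell and 7 did not pass the test, with a median of -0.86. The actin-binding peptide Tmsb4x measured 2070.4, 2009 and 1899 at 96 h, against 8899.6 and 9458 at 24 h (-2.20 ± 0.12), and Actb measured 5329.7, 5252 and 4815 at 96 h, against 11610.2 and 12319 at 24 h (-1.22 ± 0.12). Lmna, which encodes lamins of the nuclear envelope, measured 405, 457 and 369.6 at 96 h, against 84.9 and 80.4 at 24 h (2.18 ± 0.16), with a sign that turned with the deposited TPM.

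**Figure D5:**
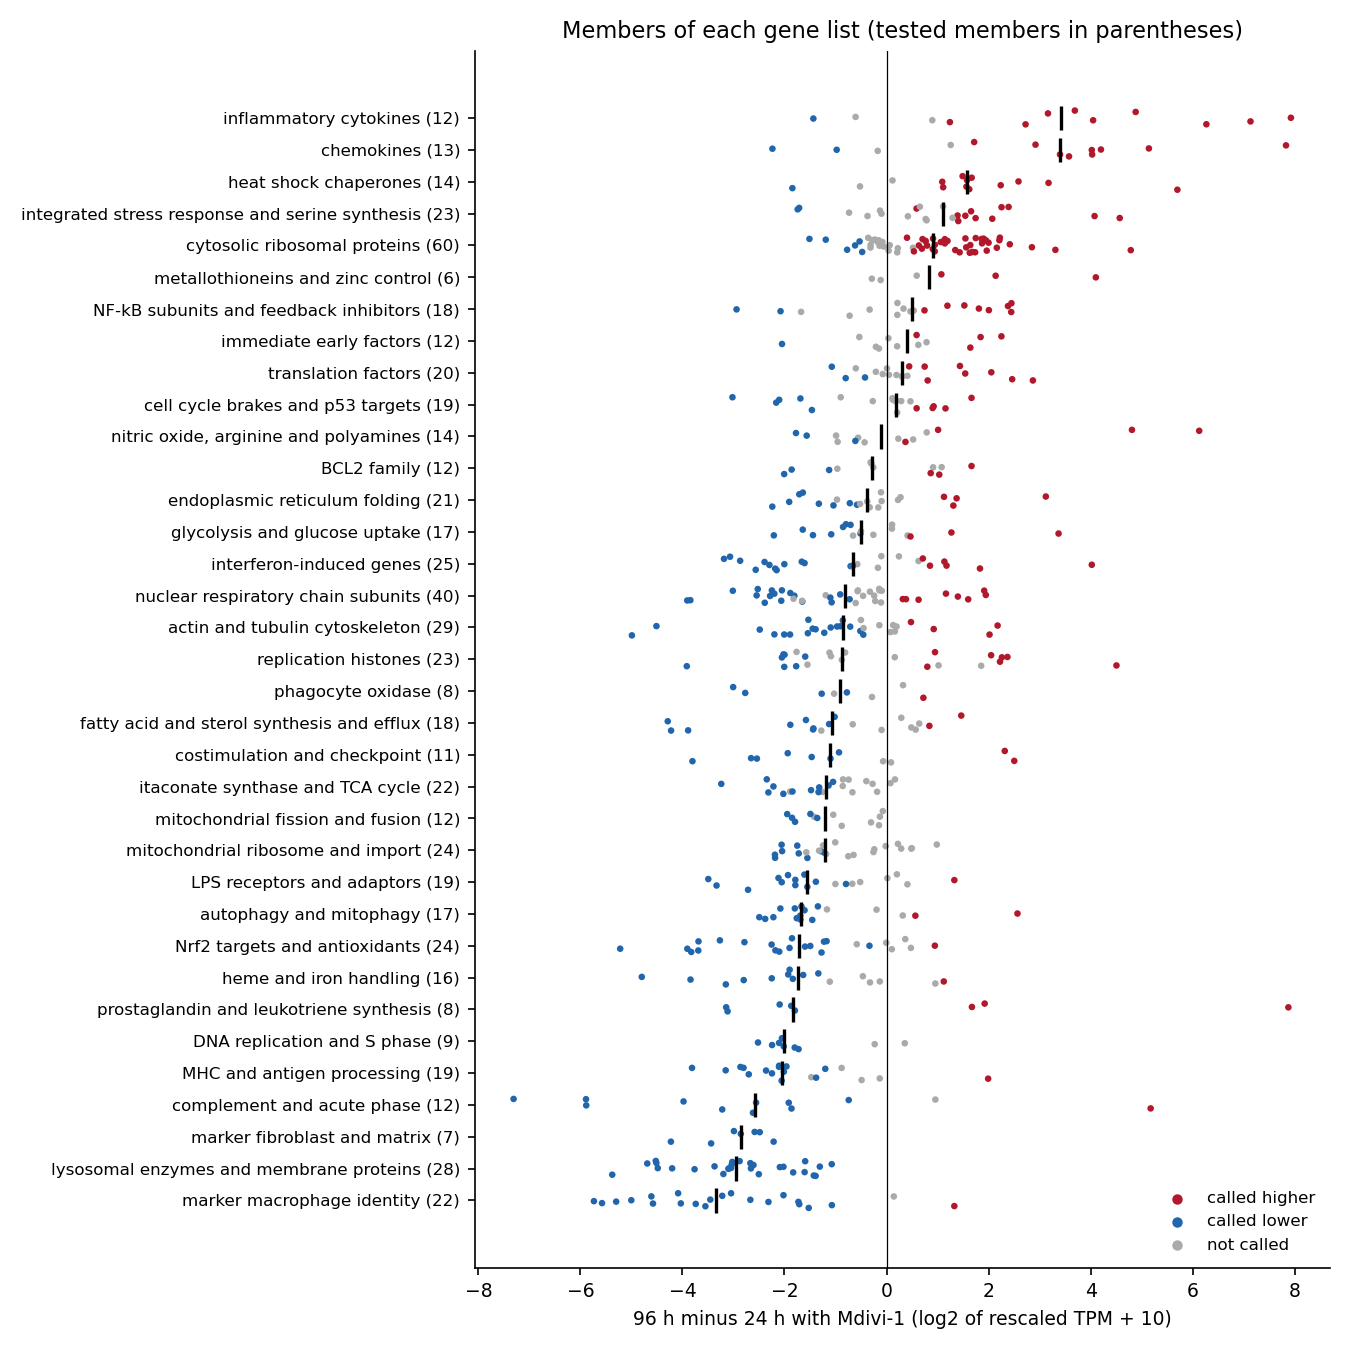
Differences between 96 h and 24 h with Mdivi-1 (x axis, log2 of rescaled TPM + 10) of the tested members of each gene list with at least 5 tested (y axis, ordered by median), 1 point per gene and a black line at each list's median. Medians run from -3.34 for macrophage identity genes to 3.43 for inflammatory cytokines.

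Other large rises included genes that were also high in the number 3 library. Of the 15 largest rises named by the rule, 4 had a level there of at least 50% of their 96 h mean. Lyz1 and Hspa1b are given above. Mid1, a ubiquitin ligase gene, measured 480.5, 488 and 645 at 96 h, against 3.43 and 5.61 at 24 h, with 453 in the number 3 library, and Eno1b, a retrogene of enolase, measured 591, 764 and 795 at 96 h, against 3.79 and 4.50 at 24 h, with 427. A copy of another gene, Tpm3-rs7, measured 1044, 879 and 1046 at 96 h, against 8.18 and 4.89 at 24 h, and the split of its reads from the parent gene is uncertain. The histone gene Hist1h2al measured 425, 643 and 501 at 96 h, against 0 at 24 h. Ifi202b, an interferon-inducible DNA sensor, measured 1086, 865 and 880.3 in the Mdivi-1 96 h libraries, against 0.164 and 0 in the Mdivi-1 24 h libraries (6.56 ± 0.19, limma adjusted p = 2.0e-07), with 36.6 in the number 3 library.

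The time difference was then set against that of cells without Mdivi-1. Of the 9162 genes, 7 had a higher signed time difference (96 h minus 24 h, log2) with Mdivi-1 than without it and 0 a lower one (limma adjusted p under 0.05, 0.0764% of genes tested), and 279 passed an unadjusted p of 0.05. Of the 7, 4 had a gene symbol and the level required by the rule. The other 3 were Atp5k-ps2, Gm42472 and Gm44600. For Il1b, cells with Mdivi-1 averaged 9944 ± 90.03 at 96 h (SD, n = 3) and 31.1 ± 5.89 at 24 h (SD, n = 2). Cells without Mdivi-1 averaged 7049 ± 1131 at 96 h (SD, n = 3) and 108 ± 1.028 at 24 h (SD, n = 2). The differences were 7.93 ± 0.13 with and 5.89 ± 0.13 without Mdivi-1, and they differed by 2.03 ± 0.19 (log2, SE; limma adjusted p = 0.016). Il1b was thus higher with Mdivi-1 than without at 96 h and lower at 24 h.

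For Cxcl2, cells with Mdivi-1 averaged 3424 ± 364 at 96 h (SD, n = 3) and 5.05 ± 1.17 at 24 h (SD, n = 2), and cells without averaged 1713 ± 113 at 96 h (SD, n = 3) and 10.5 ± 0.888 at 24 h (SD, n = 2). The differences were 7.83 ± 0.12 with and 6.39 ± 0.12 without, and they differed by 1.44 ± 0.17 (limma adjusted p = 0.036). Hmox1 averaged 3699 ± 156 at 96 h (SD, n = 3) and 1693 ± 96.7 at 24 h (SD, n = 2) with Mdivi-1, and 1076 ± 35.5 at 96 h (SD, n = 3) and 1714 ± 198 at 24 h (SD, n = 2) without. It rose by 1.12 ± 0.09 with Mdivi-1 and had -0.66 ± 0.09 without it, a gap of 1.78 ± 0.12 (limma adjusted p = 0.0046). Saa3 averaged 1886 ± 114 at 96 h (SD, n = 3) and 3173 ± 461 at 24 h (SD, n = 2) with Mdivi-1, and 981 ± 145 at 96 h (SD, n = 3) and 5244 ± 347 at 24 h (SD, n = 2) without. Its differences were -0.74 ± 0.14 with and -2.42 ± 0.14 without, and they differed by 1.67 ± 0.19 (limma adjusted p = 0.036), so that its fall was the smaller with Mdivi-1. All 4 gaps lay above 0 in each setting tried, but none of the 4 was called with no background subtracted, with satellite-like genes kept, with all 12 libraries or with the replicate number as a block (limma adjusted p of 0.11 to 0.26 with the block). Median-of-ratios scaling also removed the calls of Hmox1 (gap 1.71, limma adjusted p = 0.083) and Cxcl2 (gap 1.39, limma adjusted p = 0.086). Leaving out 1 library at a time gave 4 calls without 24 h number 1, 4 without 24 h number 2, 25 without 96 h number 1, 2 without 96 h number 2 and 17 without 96 h number 3. Hmox1 was called in all 5 of these (limma adjusted p of 0.018 to 0.047). Il1b lost its call without 24 h number 1 (limma adjusted p = 0.073) and without 96 h number 2 (0.074). Cxcl2 and Saa3 lost theirs without either 24 h library and without 96 h number 2 (limma adjusted p of 0.087 to 0.20).

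For no other gene described did the gap between the arms pass the test, which does not show that the arms were equal. Ptgs2 differed by 7.88 ± 0.13 with and 6.51 ± 0.13 without Mdivi-1, Nos2 by 6.13 ± 0.17 and 6.33 ± 0.17, Ctsd by -4.20 ± 0.13 and -4.42 ± 0.13, and C1qb by -7.31 ± 0.14 and -7.25 ± 0.14. Cdkn1a, for which the difference was 1.16 ± 0.13 with Mdivi-1, had -0.12 ± 0.13 without it (gap 1.27 ± 0.19, limma adjusted p = 0.084). Lcn2, a siderophore-binding acute phase protein, differed by 0.96 ± 0.44 with and -1.94 ± 0.44 without Mdivi-1 (gap 2.90 ± 0.62, limma adjusted p = 0.31), and the sign of its difference with Mdivi-1 turned with the deposited TPM and with satellite-like genes kept.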

How the data were processed

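Values are TPM, as deposited by the authors, in 1 table of 49585 genes whose columns each sum to 1000000, so depth cannot be recovered, intervals from counts cannot be given, and no source used here names the aligner, counter or annotation. Per the labels' protocols, 100 ng of total RNA per library went through rRNA depletion and a directional kit. The submitters' processing notes name hg19, while the identifiers are mouse Ensembl identifiers, so the files' genes get no coordinates. Columns were matched by name, with 0 left unmapped.

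Biotypes came from GENCODE M21. Genes named mt- (37), structured RNA (6084) and 13 satellite-like genes (at least 10% of 12-base words shared with the transcripts of Gm10800 and Gm10801) were removed. The median TPM of 1441 receptor genes was subtracted in each library, and values under 0 were set to 0. The rest was rescaled to 1000000. Genes with a mean of at least 10 over the 2 groups were fitted as log2(value + 10) by limma's trended model (version 3.58.1, under R 4.3.3), over 10 libraries in 4 groups with 6 residual degrees of freedom. P-values were adjusted by Benjamini-Hochberg over all genes tested. Both number 3 libraries of 24 h were left out of that fit. This scale makes the changes of low genes look smaller. The method was checked on simulated data. The simulation gave each gene the same spread in all groups and held no background and no values set to 0, so those features of the data were not tested. Figures were drawn with Python 3.11.15, pandas 2.3.3, numpy 2.4.6 and matplotlib 3.10.9.

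The groups, lists and members were chosen with earlier results of these data known. Named genes were drawn from a fixed list, the 15 largest rises and falls, up to 4 leading members of each of 44 lists, and the largest gaps between the arms. Adgre1, Aif1, Alox5ap, Ass1, Ccl6, Cd68, Cebpa, Csf1, Csf1r, Cxcl11, Cxcl3, Ebi3, Fcer1g, Hspa1a, Il18, Il27, Lif, Ly96, Mertk, Mff, Pla2g4a, Spi1 and Tlr4 were named after their values were seen. Some genes that the rule names are not reported here. Alternatives were other libraries, background, filters, pseudocounts and scalings.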

Additional observations from a re-analysis of the deposited data

Results flagged for a closer look

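The time difference differed between cells with and without Mdivi-1 for 4 named genes, by a test of that difference in limma. The gap, on the log2 scale, was 2.03 for Il1b, 1.78 for Hmox1, 1.67 for Saa3 and 1.44 for Cxcl2. In each case the signed difference with Mdivi-1 was the higher of both, which for Saa3 is a smaller fall. None of the 4 was called with no background subtracted, with satellite-like genes kept, with all 12 libraries or with the replicate number as a block. Hmox1 and Cxcl2 were also not called with median-of-ratios scaling.

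A signal stood outside the genes compared. Satellite-like genes averaged 16.7% of the TPM in the Mdivi-1 96 h libraries, against 0.00% in both Mdivi-1 24 h libraries and 1.03% in the number 3 library of 24 h. Genes of the mitochondrial genome averaged 69.0% in the Mdivi-1 96 h libraries, against 6.25% and 6.68% in the Mdivi-1 24 h libraries and 96.0% in the number 3 library. Without Mdivi-1 at 96 h, satellite-like genes took 24.0%, 21.7% and 7.35%, and the mitochondrial genome 58.6%, 62.5% and 80.8%. The part of these kinds of RNA in the gene results was not tested beyond the scalings given.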

How the results depend on the processing

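The count of 5392 called genes became 69 with all 12 libraries, 9793 with no background subtracted, 13817 with the deposited TPM, 8714 with a minimum mean of 1 and 2649 with one of 30, where fewer genes were tested. It stayed within 1.5 times with the 5 Mdivi-1 libraries alone (5981), the 90th percentile subtracted, other pseudocounts, median-of-ratios and TMM scaling, satellite-like genes kept and protein-coding genes alone, though the split between higher and lower moved as given above. Leaving out 1 library gave 3156 to 5299 calls. The 7 genes whose time difference differed between the arms became 0 with all 12 libraries and with no background subtracted, 50 with the 90th percentile subtracted, 24 with the deposited TPM, 17 with a pseudocount of 1, 11 with one of 30, 16 with a minimum mean of 1, 11 with one of 30, 17 with TMM scaling, 11 with satellite-like genes kept and 28 with protein-coding genes alone, a setting chosen after seeing the data. Leaving out 1 library gave 2 to 25. With none called, 58 genes passed an unadjusted p of 0.05 with all 12 libraries and 278 with no background subtracted. The causes were not tested.

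With the replicate number as a block, 5045 genes were called for time, and 0 for the gap between the arms, with 252 at an unadjusted p of 0.05 in limma. Same-numbered Mdivi-1 libraries of both times correlated at 0.0082 and -0.0075 in their deviations from the group means. Between the arms, same-numbered libraries correlated at -0.24, -0.0527 and -0.40 at 96 h and at 0.0128 at 24 h, so the numbers were not taken to pair the samples.

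Of 2896 alternative values of the 150 tested genes named, 2627 kept their direction and side of the threshold. Signs that turned are given here with their log2 difference: with all 12 libraries Cybb (0.28), Ebi3 (0.29), Ass1 (0.41), Mff (0.41), Actb (0.72), Saa3 (1.57), Acod1 (1.88) and Ccl5 (2.87); with the 90th percentile of the receptor genes subtracted Acod1 (0.0087) and Ccl5 (0.16); with TMM scaling Acod1 (0.10) and Ccl5 (0.21); with protein-coding genes alone Acod1 (0.037) and Ccl5 (0.14); with no background subtracted Spi1 (-0.44), Sqstm1 (-0.10) and Atf3 (-0.0464). More turned with satellite-like genes kept Spi1 (-1.76), Sqstm1 (-1.41), Atf3 (-1.36), Lcn2 (-0.93), Hmox1 (-0.90), Cdkn1a (-0.78), Bcl2l1 (-0.76), Cd14 (-0.67), Tnf (-0.62), Il18 (-0.55), Hsp90ab1 (-0.53), Ddit3 (-0.47), Hspa8 (-0.35), Jund (-0.32) and Uqcrb (-0.0646). Most turned with the deposited TPM Spi1 (-2.63), Sqstm1 (-2.32), Atf3 (-2.25), Hmox1 (-1.82), Lcn2 (-1.77), Cdkn1a (-1.64), Cd14 (-1.57), Bcl2l1 (-1.52), Hsp90ab1 (-1.45), Tnf (-1.42), Hspa8 (-1.27), Ddit3 (-1.26), Jund (-1.19), Il18 (-1.02), Uqcrb (-0.94), Rps6 (-0.72), Mt1 (-0.71), Zfp36 (-0.69), Lmna (-0.54), Nfkbia (-0.50), Ifi44 (-0.47), Cycs (-0.35), Pla2g4a (-0.35), Hsp90aa1 (-0.31), Nfkb2 (-0.25), Socs3 (-0.24), Mki67 (-0.20) and Rpsa (-0.0774).

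Calls lost with the sign kept were those of Bcl2l1, Cd14, Cdkn1a, Csf1, Hmox1, Hsp90ab1 and Tnf with no background subtracted, of Bnip3, Ccl2, Cd40, Eif2s2 and Il1rn with the deposited TPM, and of Bnip3, Ccl2, Cd40, Cycs, Hsp90aa1, Ifi44, Lmna, Mt1, Nfkb2, Nfkbia, Pla2g4a, Rps6, Rpsa, Socs3 and Zfp36 with satellite-like genes kept. Mki67 also lost its call with a pseudocount of 30 (limma adjusted p = 0.074) and with the replicate number as a block (limma adjusted p = 0.10). Tlr4 lost its call with a pseudocount of 1 (limma adjusted p = 0.056). Cxcl3 lost its call with the 5 Mdivi-1 libraries alone (limma adjusted p = 0.054). Losses with all 12 libraries and with 1 library left out are given above.

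TPM keeps no depth, so counting error is unknown. Precision rests on 3 libraries against 2, and pairs of 96 h libraries had a median gap of 0.33 to 0.47 log2 across genes, against 0.05 for the 24 h pair, while the fit assumes like spread in both. Genes under the subtracted background at 96 h cannot be told from 0, which touches most lists whose members had about 30 rescaled TPM at 24 h.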
